A study of Mus musculus with 4 samples.

Results

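The mRNAs encoded by the mitochondrial genome were examined in the list of m6A peaks of mouse splenic NK cells. A peak belonged to the set when it lay on the mitochondrial chromosome (chrMT in the list) and was assigned to 1 of 10 genes, namely mt-Co1, mt-Co2, mt-Co3, mt-Atp6, mt-Cytb, mt-Nd1, mt-Nd2, mt-Nd4, mt-Nd5 and mt-Nd6. By this rule there were 14 peaks in 9 genes, out of 20727 distinct peaks in the whole list and 21 on the mitochondrial chromosome. No peak was assigned to mt-Atp6, although a peak lay inside it. At least 1 peak was thus assigned to 9 of 10 genes, beside 46.3% of all annotated protein-coding genes, whether or not NK cells express them. The share was 90.7% of nuclear oxidative phosphorylation genes, 91.1% of cytosolic ribosomal protein genes and 75.7% of mitochondrial RNA machinery genes.

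The mitochondrial genome is a small circle that is read on both strands into long precursor RNAs, from which transfer RNAs are cut out and the mRNAs between them are released. All of these mRNAs encode subunits of the oxidative phosphorylation complexes of the inner membrane, and in mammals they have very short untranslated ends or none. Most receive their poly(A) tail inside the organelle, where the stop codon of several is only completed by that tail, while the mRNA of mt-Nd6 is known to lack such a tail. m6A on nuclear mRNAs is written in the nucleus by the METTL3 and METTL14 complex, mostly in the sequence context DRACH, where D stands for any base but C, R for a purine and H for any base but G. Mitochondrial RNA is made and kept in another compartment.

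The libraries were prepared from splenic NK cells of C57BL/6 mice, for which the labels give no genotype or age, with 2 m6A immunoprecipitates and 2 inputs of RNA that was not pulled down. According to the methods, the cells had been expanded in the animals with an IL-15 expression plasmid and sorted, and poly(A) RNA was fragmented before incubation with the antibody. The peak list names no library, and each peak carries 1 fold enrichment (reads of the immunoprecipitate over reads of the input) and 1 log10 p-value of peak calling without adjustment, with no replicate error and no test of a difference between peaks. Neither the depth of a library nor the level of a gene is given. All 10 NK cell markers had a peak, as did 4 of 4 T cell, 2 of 4 B cell, 2 of 3 erythroid and 4 of 4 macrophage or granulocyte markers. The share over all coding genes was 46.3%, and a peak on a marker says only that its RNA gave reads for peak calling. The strongest erythroid peak, on Hbb-bs, reached a log10 p of -2440, beside -624 for the strongest NK cell marker peak.

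The sequences of 6 peaks are given first, because they show what the antibody fraction covered where most of these genes end. Each runs 5′ to 3′ on the plus strand of GRCm38 and stops on the last base of its gene, except that of mt-Ts1. Capitals mark DRACH. Bases downstream of a gene were not part of its peak, since peaks were sought within annotated transcripts. The mt-Co1 peak (chrMT:6753-6872) was the most significant of the set, with 2 DRACH sites in 120 nt. The mt-Ts1 peak (chrMT:6870-6938), which covers the adjoining serine transfer RNA gene of the other strand, had the highest fold enrichment on the chromosome and is shown on the strand of mt-Co1. The mt-Atp6 peak (chrMT:8518-8607) held no DRACH site. The mt-Co3 peak (chrMT:9216-9390) had the highest fold enrichment of the 10 genes and starts close to a GGACT, the form of DRACH best known from nuclear mRNAs. The mt-Nd2 (chrMT:4714-4951) and mt-Nd4 (chrMT:11334-11544) peaks held 10 and 9 whole DRACH sites, the highest numbers in the set.
mt-Co1: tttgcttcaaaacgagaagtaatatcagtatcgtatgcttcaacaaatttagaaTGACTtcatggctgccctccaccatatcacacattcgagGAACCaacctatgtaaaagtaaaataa
mt-Ts1: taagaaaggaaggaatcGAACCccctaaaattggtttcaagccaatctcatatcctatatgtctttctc
mt-Atp6: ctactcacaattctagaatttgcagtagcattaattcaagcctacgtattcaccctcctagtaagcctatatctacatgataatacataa
mt-Co3: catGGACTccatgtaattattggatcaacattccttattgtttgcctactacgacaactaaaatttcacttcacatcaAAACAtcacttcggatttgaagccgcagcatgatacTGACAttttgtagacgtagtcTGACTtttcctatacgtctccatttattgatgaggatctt
mt-Nd2: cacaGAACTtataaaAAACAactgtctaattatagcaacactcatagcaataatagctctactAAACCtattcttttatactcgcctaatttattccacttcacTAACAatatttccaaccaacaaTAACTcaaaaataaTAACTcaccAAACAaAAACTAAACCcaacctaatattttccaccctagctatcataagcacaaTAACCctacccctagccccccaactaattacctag
mt-Nd4: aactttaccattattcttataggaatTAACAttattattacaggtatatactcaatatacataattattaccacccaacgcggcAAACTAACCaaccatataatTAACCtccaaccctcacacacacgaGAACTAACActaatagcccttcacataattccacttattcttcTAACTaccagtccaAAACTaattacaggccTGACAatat

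In these sequences G was scarce. It made up 4.20% of the bases of the mt-Nd2 peak, 6.64% of the mt-Nd4 peak and 14.2% of the mt-Co1 peak. Most of the capitals in the mt-Nd2 and mt-Nd4 lines read AAACN or TAACN, and neither line holds a GGAC.

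Complex IV, cytochrome c oxidase, takes its catalytic core from mt-Co1, mt-Co2 and mt-Co3. mt-Co1 (ENSMUSG00000064351, chrMT:5328-6872), which encodes the heme-bearing subunit, had 3 peaks. The first covered positions 1 to 60 of the gene with a fold enrichment of 1.24 (log10 p -10.6). The second covered positions 951 to 1159 with a fold enrichment of 1.40 (log10 p -193). The third covered positions 1426 to 1545 with a fold enrichment of 2.01 (log10 p -431). Its fold enrichment thus rose towards the 3′ end, and the last peak ranked 68 of 20727 by p-value while its fold enrichment was higher than that of 36.5% of all peaks. mt-Co2 (ENSMUSG00000064354, chrMT:7013-7696), the subunit that receives electrons from cytochrome c, had a single peak at positions 387 to 595, with a fold enrichment of 2.47. Its log10 p of -4.74 was the weakest of the set.

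mt-Co3 (ENSMUSG00000064358, chrMT:8607-9390), the third core subunit, was assigned 3 peaks. The peak at positions 1 to 291 had a fold enrichment of 3.18 (log10 p -9.48), and the peak at positions 610 to 784 had a fold enrichment of 3.46 (log10 p -5.68). The third, with a fold enrichment of 1.68 (log10 p -40.9), shared 1 nt with mt-Co3 and all of its 90 nt with mt-Atp6, at positions 592 to 681 of that gene. mt-Atp6 (ENSMUSG00000064357, chrMT:7927-8607) encodes a subunit of the proton channel of ATP synthase, and its last base is the first base of mt-Co3. Placed by the larger overlap, this peak belongs to mt-Atp6.

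Complex III, which passes electrons to cytochrome c, takes cytochrome b from the mitochondrial genome. mt-Cytb (ENSMUSG00000064370, chrMT:14145-15288) had a peak at positions 353 to 587, with a fold enrichment of 1.19 (log10 p -13.7). A second peak at positions 822 to 1144 had a fold enrichment of 2.46 (log10 p -205). The fold enrichment of 1.19 was the lowest of the set, and 1.48% of all peaks lay below it.

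Complex I, the NADH dehydrogenase that feeds the chain, takes several of its membrane subunits from the mt-Nd genes. mt-Nd1 (ENSMUSG00000064341, chrMT:2751-3707) was assigned a peak at positions 330 to 479, with a fold enrichment of 1.26 (log10 p -14.5). mt-Nd2 (ENSMUSG00000064345, chrMT:3914-4951) was assigned a peak at positions 475 to 653, with a fold enrichment of 1.36 (log10 p -20.1). Both genes held a second peak at their 3′ end that the list gave to the transfer RNA gene behind them, with which it shared 2 nt. In mt-Nd1 this was a peak at positions 748 to 957 assigned to mt-Ti, with a fold enrichment of 2.16 (log10 p -93.6). In mt-Nd2 it was a peak at positions 801 to 1038 assigned to mt-Tw, with a fold enrichment of 2.39 (log10 p -78.8). In each gene the peak that bore the name of another gene was the more significant, and the exon named in the region label of the list was the one of mt-Nd1 or mt-Nd2.

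mt-Nd4 (ENSMUSG00000064363, chrMT:10167-11544) and mt-Nd5 (ENSMUSG00000064367, chrMT:11742-13565) encode membrane subunits that take part in proton pumping. Each had 1 peak, and both reached the last base. The mt-Nd4 peak, at positions 1168 to 1378, had a fold enrichment of 2.12 (log10 p -69.2). The mt-Nd5 peak, at positions 1645 to 1824, had a fold enrichment of 1.23 (log10 p -8.56). mt-Nd5 was the longest gene of the set with 1824 nt. Among the 9 genes with an assigned peak it had the smallest share of its length in a peak, 9.87%.

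mt-Nd6 (ENSMUSG00000064368, chrMT:13552-14070) is the single protein-coding gene of the minus strand. Its peak covered all 519 nt of the gene, with a fold enrichment of 2.95 (log10 p -79.3). In the list its region label named an exon of mt-Nd5, with which mt-Nd6 shares its last bases on the other strand. The list has no strand for a peak, so whether the reads came from mt-Nd6 RNA or from RNA of the plus strand cannot be told apart.

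**Figure D1:**
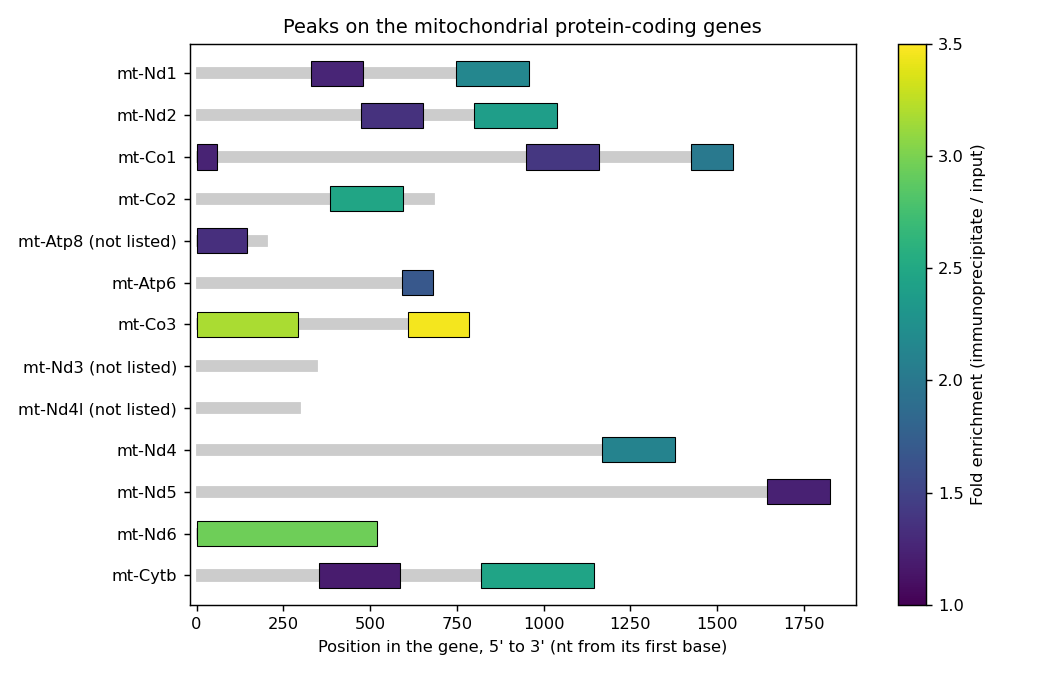
Peaks along the 13 mitochondrial protein-coding genes, each drawn from its first to its last base (x axis, position in nt, to scale; grey bars, genes; boxes, peaks placed on the gene of largest overlap; colour, fold enrichment of the peak). In 9 of the 10 listed genes a peak reaches the right-hand end of the bar, and mt-Nd3 and mt-Nd4l hold none.

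By the gene of largest overlap, a placement chosen after the values were seen, all 10 genes held a peak and there were 16 peaks. The gene of largest overlap differed from the assigned gene in 3 of the 21 peaks on the chromosome, which were those at the ends of mt-Nd1, mt-Nd2 and mt-Atp6. These 16 peaks are described from here on, with the summary values by assigned gene beside them where these differ.

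Across the 16 peaks the mitochondrial mRNAs showed low fold enrichment with high significance. Fold enrichments ran from 1.19 to 3.46 with a median of 2.07, or 1.85 over the 14 assigned peaks, beside a median of 2.66 over all peaks. A fold enrichment of at least 2 was found in 9 peaks (56.3%), or in 7 of the 14 assigned peaks (50%), beside 63.9% of all peaks. No peak reached a fold enrichment of at least 5, beside 34.6% of all peaks. In contrast, all 16 peaks had a p-value under 0.001, beside 61.5% of all peaks. Of these 16 peaks 7 were among the 1000 most significant of all 20727 peaks, or 5 of the 14 by assigned gene. The median log10 p was -30.5, or -17.3 over the 14 assigned peaks, and -4.10 over all peaks. Among the 9329 peaks that were at least as significant as the weakest peak of the set, the median fold enrichment was 2.28 and 31.8% reached 5. The pattern was not particular to the set. Median fold enrichments were 1.98 for nuclear oxidative phosphorylation, 2.06 for cytosolic ribosomal protein and 1.41 for NK cell marker peaks. Of these peaks 89.0%, 91.0% and 92.0% had a p-value under 0.001. T cell marker peaks (3.79 and 55.6%) and mitochondrial RNA machinery peaks (2.36 and 57.5%) did not share it. Peaks are not replicates and the p-value of a peak grows with its reads as well as with its fold enrichment, so no test of these differences was made.

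**Figure D2:**
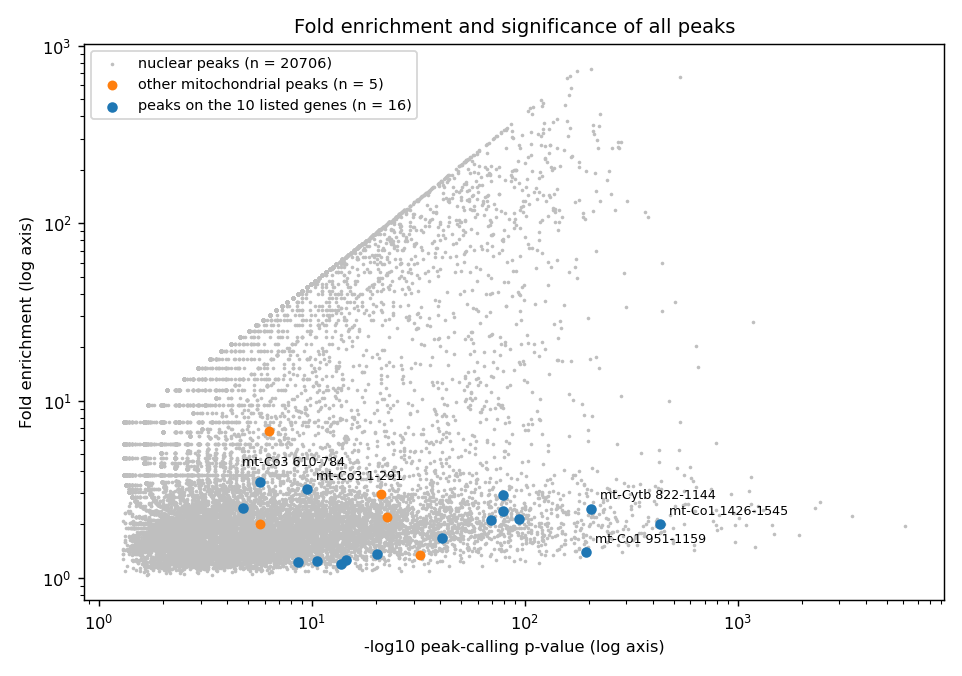
Fold enrichment (y axis, log scale) against the negative log10 of the peak-calling p-value (x axis, log scale) for every peak in the list, with grey points for nuclear peaks, blue for the 16 peaks on the 10 listed genes and orange for the other 5 mitochondrial peaks. The blue points lie between fold enrichments of 1.19 and 3.46, and that of the mt-Co1 peak at positions 1426 to 1545 is the farthest to the right among them.

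Position within the gene followed a common pattern. In 9 of the 10 genes, or 6 by assigned gene, a peak ended exactly on the last annotated base, and mt-Co2, whose peak stopped 89 nt before it, was the exception by largest overlap. Of the 16 peaks 9 reached the last base (56.3%), or 6 of the 14 by assigned gene (42.9%), beside 21.4% of all peaks with an annotated gene. Mitochondrial genes have no introns, and among 1747 nuclear peaks of genes with a single block of exon sequence the share was 49.5%. The share in the mitochondrial genes was therefore near that of nuclear genes with such a structure.

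The fold enrichments of peaks on and off the last base were also set side by side. Of the 5 genes with more than 1 peak, mt-Nd1, mt-Nd2, mt-Co1, mt-Co3 and mt-Cytb, the peak on the last base had the higher fold enrichment in 5. It also had the stronger p-value in 4 of them, mt-Co3 being the exception. By assigned gene, mt-Co1, mt-Co3 and mt-Cytb had more than 1 peak, and the peak on the last base had the highest fold enrichment in 3 of these 3 and the strongest p-value in 2. In 1540 nuclear genes with several peaks, 1 of them on the last base, that peak had the highest fold enrichment in 49.3% and the strongest p-value in 59.9%. These nuclear genes were placed by assigned gene and had any exon structure, so they are not matched to the intronless mitochondrial genes. Over all 10 genes the 9 peaks on the last base had a median fold enrichment of 2.16 (1.23 to 3.46) and the other 7 peaks had a median of 1.36 (1.19 to 3.18), and the ranges overlap. The medians were 2.29 over 6 peaks and 1.38 over 8 peaks by assigned gene. Read coverage along the genes was not analysed here.

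**Figure D3:**
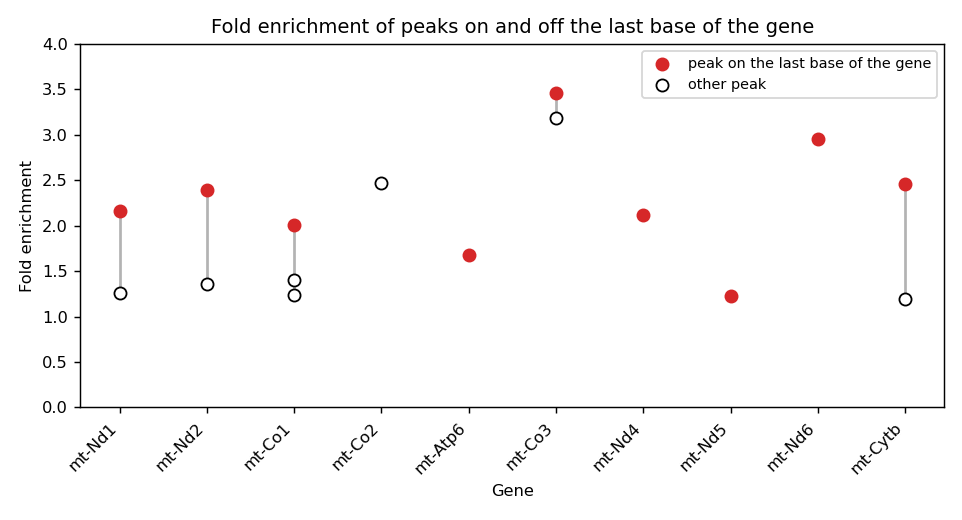
Fold enrichment (y axis, from 0) of each peak of the 10 listed genes (x axis), with red points for peaks that end on the last base of the gene, open points for other peaks and grey lines joining peaks of 1 gene. In mt-Nd1, mt-Nd2, mt-Co1, mt-Co3 and mt-Cytb the red point is above the open points of the same gene.

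The DRACH context was counted on the strand of each gene, a site being inside a peak when its methylatable A was. The 10 genes held 242 sites in 10554 nt. Peaks covered 32.2% of that length, or 27.1% by assigned gene, and held 75 sites, or 22.1 per kb, beside 23.3 per kb in the parts of the genes outside peaks. By assigned gene the densities were 21.0 inside and 23.7 outside. The density inside peaks was thus slightly below that outside under both placements, but this direction rests on mt-Nd6. That gene lay wholly inside its peak with 2 sites in 519 nt (3.85 per kb), so it lowered only the inside values. Counted as whole sites per peak, as in nuclear peaks, the density in peaks was 21.5 per kb by largest overlap and 19.6 by assigned gene. These values, above and below the 20.2 per kb of nuclear exon sequence, also include mt-Nd6, and no value without it was computed. The direction varied among the genes. mt-Nd4 had 47.4 sites per kb inside its peak and 26.6 outside, and mt-Nd5 had 38.9 and 21.9. mt-Cytb had 16.1 per kb inside its peaks and 34.1 outside, and mt-Atp6 had 0 sites inside and 10 outside.

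The G-containing core was rare throughout. GGAC occurred 14 times in the 10 genes, 5 of them inside peaks. This gave 1.47 per kb inside and 1.26 per kb outside, or 1.75 and 1.17 by assigned gene. Counted as whole sites per peak, the density by assigned gene was 1.69 per kb, beside 3.62 per kb in nuclear peaks counted in that way. The 9 genes of the plus strand were 11.6% G, beside 23.6% in the exon sequence of nuclear peaks. Of the 16 peaks 11 held no GGAC, as did 9 of the 14 assigned peaks. In the central 100 nt, a DRACH site was present in 14 of the 14 peaks long enough to hold such a window and a GGAC in 1 (7.14%), or in 12 and 1 of 12 by assigned gene, beside 84.6% and 31.9% of 16330 nuclear peaks. A motif match describes the sequence and does not place a methylated base.

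mt-Nd6 differed from the other genes in composition. Its mRNA was 28.1% G and 5.97% C, and it held 2 DRACH sites in 519 nt, or 3.85 per kb. The opposite strand of the same interval held 19 sites. The plus-strand genes ran from 14.7 sites per kb in mt-Atp6 to 29.8 in mt-Nd4.

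**Figure D4:**
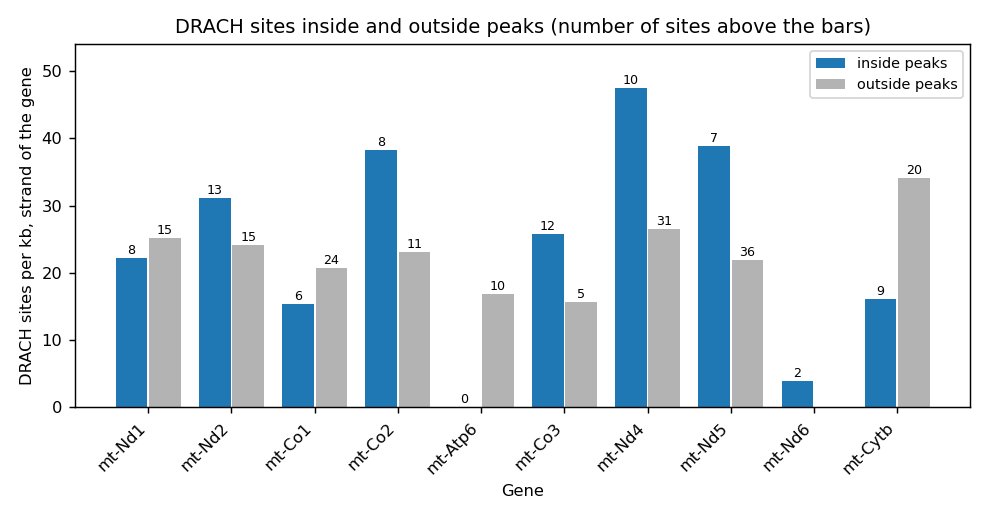
DRACH sites per kb on the strand of the gene (y axis, from 0) inside peaks (blue) and outside peaks (grey) for the 10 listed genes, with the number of sites above each bar. Blue is above grey in mt-Nd2, mt-Co2, mt-Co3, mt-Nd4 and mt-Nd5 and below it in mt-Nd1, mt-Co1, mt-Atp6 and mt-Cytb, and mt-Nd6 lies wholly inside its peak and has no grey bar.

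Several of these genes have near-identical copies in the nuclear genome, to which reads can also be assigned. The closest is on chromosome 1 (chr1:24611535-24616188), where 4654 aligned positions match the mitochondrial genome at 99.9% with 3 differences. It holds complete copies of mt-Co2, mt-Atp6 and mt-Co3 without a difference, 31.3% of mt-Co1 and 63.6% of mt-Nd4. The list placed 9 peaks on the pseudogenes of this copy, with fold enrichments from 1.58 to 13.3 and log10 p-values from -1.60 to -10.5.

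Copy and original carried overlapping peaks. At mt-Co3 positions 1 to 262 the copy, Gm28437, had a fold enrichment of 2.88 (log10 p -7.94), beside 3.18 and -9.48 for the mitochondrial peak at positions 1 to 291. At positions 464 to 783 the values on Gm28437 were 4.70 and -10.5, beside 3.46 and -5.68 at positions 610 to 784. For mt-Co2 the copy, Gm28661, had a fold enrichment of 4.66 at positions 297 to 651, beside 2.47 at positions 387 to 595 of the original. For mt-Atp6 the copy, Gm10925, had a fold enrichment of 2.30 at positions 472 to 678, beside 1.68 at positions 592 to 681. In each of these pairs the sequences are identical, so their reads cannot be told apart and the fold enrichments and p-values of mt-Co2, mt-Atp6 and mt-Co3 are uncertain. The most significant peak of the set, at mt-Co1 positions 1426 to 1545, also lies in the copied interval without a difference, and no copy peak was placed opposite it.

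Some copy peaks had no counterpart on the mitochondrial chromosome. These were the peaks on Gm28661 at mt-Co2 positions 1 to 178, on Gm10925 at mt-Atp6 positions 89 to 178 and 236 to 295, on Gm29216 at mt-Co1 positions 1285 to 1372 and on Gm28438 at mt-Nd3 positions 1 to 345. The last had the highest fold enrichment of these, 13.3 (log10 p -2.50). Of the 16 mitochondrial peaks 5 lay inside the copied interval, with a median log10 p of -9.48 (-4.74 to -431), and 10 lay outside it, with a median of -44.7 (-8.56 to -205). The median fold enrichment was 2.47 (1.68 to 3.46) inside and 1.74 (1.19 to 2.95) outside. By assigned gene 5 lay inside and 8 outside, where the median log10 p was -17.3. The mt-Co1 peak at positions 951 to 1159 crossed the border of the interval. Genes outside the interval also have copies. Sequence of mt-Nd5, mt-Nd6 and mt-Cytb is matched on chromosome 4 (93.0% identity), and that of mt-Nd5 on chromosome 13 (95.2%), without a peak on either copy. The part of the copies in these values was not tested.

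**Figure D5:**
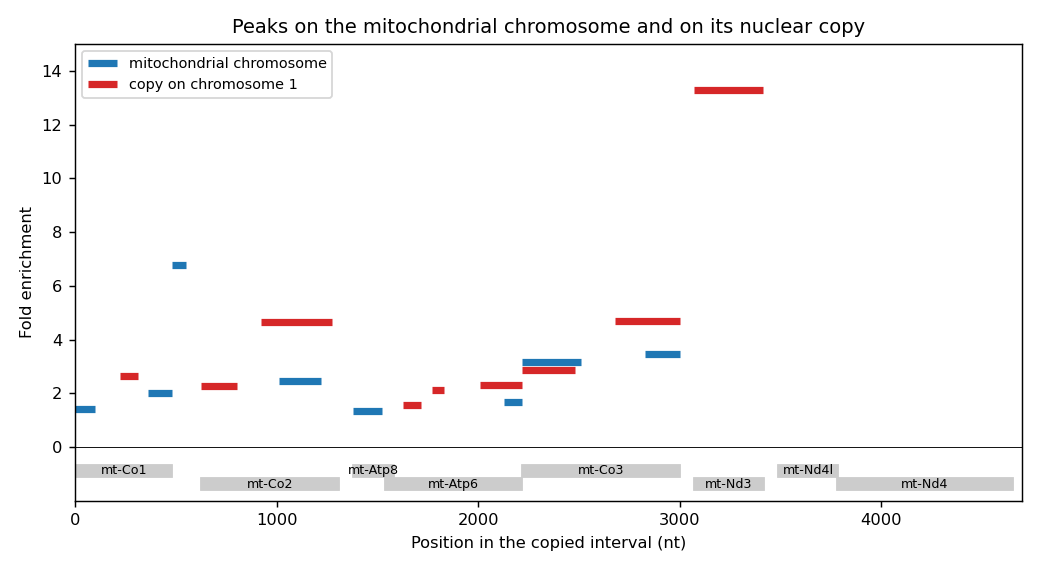
Fold enrichment (y axis, from 0) of peaks along the interval that the mitochondrial chromosome shares with chromosome 1 (x axis, position in nt), with blue bars for peaks on the mitochondrial chromosome, red bars for peaks on the nuclear copy and grey boxes for the genes. Blue and red bars overlap at mt-Co2, at the end of mt-Atp6 and at both ends of mt-Co3, and the red bar at 13.3 covers the copy of mt-Nd3.

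Among 2 further copies with a peak, Gm13339 on chromosome 2 (97.4% identity over 3260 positions) had a peak opposite the second part of mt-Nd2, with a fold enrichment of 5.69 (log10 p -1.63). Below the identity limit of 90%, a copy of part of mt-Nd5 on chromosome 10 (86.8%) lay inside a Ccdc162 peak that spans 111504 nt of genome, introns included.

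The other genes of the chromosome were read against the same values. mt-Atp8, which encodes a small ATP synthase subunit from the same transcript as mt-Atp6, had a peak at positions 1 to 146 with a fold enrichment of 1.34 (log10 p -32.1). mt-Nd3 and mt-Nd4l, subunits of complex I, had none. mt-Ts1 had a peak over its whole 69 nt with a fold enrichment of 6.77 (log10 p -6.27), and the region label of that peak named the exon of mt-Co1, whose last 3 nt it shares. All 4 genes lie in the interval copied on chromosome 1, and the copy has no difference under the mt-Ts1 and mt-Atp8 peaks, so their values are uncertain in the same way. In mammals the mt-Co1 transcript is known to run on through the antisense of this transfer RNA. As the list has no strand, whether the reads came from that transcript or from mt-Ts1 RNA cannot be told apart. Of the 22 transfer RNA genes, mt-Ts1 alone held a peak by largest overlap.

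Nuclear genes of oxidative phosphorylation, among them 4 genes (11 peaks) of complex II, which has no mitochondrially encoded subunit, and genes of cytosolic ribosomal proteins are set beside them. The 78 of 86 nuclear oxidative phosphorylation genes with a peak carried 155 peaks, with a median fold enrichment of 1.98 and a median log10 p of -14.3, beside -17.3 for the mitochondrial peaks by assigned gene and -30.5 by largest overlap. A fold enrichment of at least 5 was reached by 15 of these peaks (9.68%), a p-value under 0.001 by 138 (89.0%), and the last base of the gene by 30 (19.4%). In 72 of 79 cytosolic ribosomal protein genes there were 178 peaks, with a median fold enrichment of 2.06, a median log10 p of -84.3 and 14 peaks (7.87%) at or above 5. GGAC stood at 3.87 per kb in the first list and 3.29 in the second, beside 1.47, or 1.75 by assigned gene (1.69 counted as whole sites), in the mitochondrial peaks. These values are a description and the differences were not tested.

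The nuclear-encoded proteins that transcribe, process and tail mitochondrial RNA were taken as the other genes of the pathway. Of 38 symbols in the list, 37 matched a coding gene, and 28 of these (75.7%) had a peak, beside 46.3% of all coding genes. A p-value under 0.001 was found in 16 genes, and 6 genes reached 5-fold. Of their 40 peaks 57.5% had such a p-value, beside 61.5% of all peaks, and 20% reached 5-fold, beside 34.6% of all peaks. The median fold enrichment of their 40 peaks was 2.36. The highest fold enrichments were 19.0 (log10 p -3.77) at Mettl15, a methyltransferase of the small ribosomal RNA, 13.3 (log10 p -2.50) at Pde12, which trims poly(A) tails, and 11.4 (log10 p -2.09) at Tfb1m, which dimethylates the small ribosomal RNA. The Pde12 and Tfb1m peaks did not pass the p-value limit of 0.001. The Tfb1m peak shared no base with an annotated exon of Tfb1m, and that of Mettl15 covered 150 nt of exon. Fastk and Fastkd1, which act on mitochondrial transcripts, followed with 8.06 (log10 p -4.78) and 6.32 (log10 p -14.5).

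The most significant peaks of this list were mostly on other genes, with Fastkd1 in both groups. Slirp, which forms a complex with Lrpprc that stabilises mitochondrial mRNAs, had a log10 p of -72.9 at a fold enrichment of 2.78, and Rexo2, an exonuclease for short RNA, had -34.2 at 2.43. Hsd17b10, a subunit of the enzyme that cuts the 5′ end of transfer RNAs, had -21.8 at 2.10. Ptcd1 had -15.1 at 1.66 and Fastkd1 had -14.5 at its 6.32. No peak was found on Polrmt, the mitochondrial RNA polymerase, or on Tfb2m, its initiation factor, and Tfam, which packages the genome, had a log10 p of -1.46 at a fold enrichment of 1.90.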

How the data were processed

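MeRIP-seq was analysed from 4 libraries in 2 groups, 2 m6A immunoprecipitates and 2 inputs. The authors trimmed reads with Trimmomatic and Cutadapt (the submitters' processing notes also name fastp), aligned them with HISAT2 (GRCm38 in the processing notes), called peaks with exomePeak and annotated them with ChIPseeker. The deposited fold enrichment is their ratio of immunoprecipitate to input reads per peak, and the deposited significance is a score, namely log10 of the p-value from peak calling. The width of a peak span is given in nt by the authors as another column. There were 0 columns with a value per sample, so depth and replicate error are unknown and no planned test per library was run. How replicates were combined and whether libraries were stranded is not given in the sources used here.

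Of 20751 rows 24 exact repeats were removed, 0 of them mitochondrial. Peaks were compared with GENCODE M21 genes and the RefSeq GRCm38.p6 sequence by Python 3.11.15, pandas 2.3.3 and pysam 0.24.0. Nuclear copies were found with BLAST 2.17.0 (at least 90% identity, or 95% and 80% as alternatives, over 200 nt, word size 20). A DRACH or GGAC site was read on the strand of the gene. Motif counting, interval merging and the last-base rule were checked on simulated data. Values describe the list, without a test. Named genes were the 10 members, other mitochondrial genes and copies with a peak, and up to 5 machinery genes by fold enrichment and by p-value; Polrmt, Tfb2m, Tfam and Hbb-bs were added after their values were seen. The members and lists were chosen with earlier results of these data known. The nuclear gene lists were taken by symbol pattern.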

Additional observations from a re-analysis of the deposited data

How the results depend on the processing

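Of 24 alternative values for 7 results, 19 stayed within 1.5 times the reported value and 5 moved beyond it. The placement of peaks by the gene of largest overlap was chosen after seeing the data. At a fold enrichment of at least 5, 0 of the 10 genes had a peak (9 with all peaks), and the share of their length inside peaks of 2-fold or more was 17.5% (27.1% with all peaks). The motif density in peaks by assigned gene was 19.6 per kb for DRACH counted as whole sites, 13.2 on the opposite strand and 1.69 for GGAC, which is a rarer motif. Of the 28 machinery genes with a peak, 16 passed the p-value limit and 6 passed the higher fold limit. Each of these alternatives counts fewer peaks or another motif. The median fold enrichment stayed between 1.68, without mt-Nd6, and 2.12, for the strongest peak of each gene.

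No paired analysis was possible because each peak has 1 value and no library is named. For the same reason leaving out a replicate was not run. The unknown depth limits how the weaker peaks and the genes without a peak can be read.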

Other observations

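The ribosomal RNA genes of the mitochondrial chromosome, whose products form the core of the mitochondrial ribosome, also carried peaks. mt-Rnr1, the small ribosomal RNA, had a peak over all of its 955 nt with a fold enrichment of 2.98 (log10 p -21.2). mt-Rnr2, the large ribosomal RNA, had a peak at positions 1 to 1284 with a fold enrichment of 2.19 (log10 p -22.4), and another at positions 1373 to 1582 with a fold enrichment of 2.0 (log10 p -5.69). The first covered 81.2% of the gene and the last reached its final base. With 1284 nt the former was wider than any peak on the mRNAs, the widest of which had 519 nt. On the strand of the gene, the mt-Rnr1 peak held 28 DRACH sites and 4 GGAC, and the wider mt-Rnr2 peak held 44 and 3.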
